A study of Saccharomyces cerevisiae with 72 samples.

Results

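The 9 genes described here encode the G1 cyclins (*CLN1*, *CLN2* and *CLN3*) and the B-type cyclins (*CLB1*, *CLB2*, *CLB3*, *CLB4*, *CLB5* and *CLB6*) of the budding yeast *Saccharomyces cerevisiae*. They were taken by name, whatever their values, from the 6843 features of the deposited table of estimated read counts. All 9 passed the filter on low counts in both tests of the study, in which 5999 genes (*mad1Δ bub2Δ* test) and 6008 genes (*cdc24-1 swe1Δ* test) were tested.

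Cyclins bind and activate Cdc28, the cyclin-dependent kinase (CDK) that drives the yeast cell cycle. Cln3 starts the cycle in G1 by switching on SBF and MBF, the transcription factors of the G1/S genes, to which *CLN1*, *CLN2*, *CLB5* and *CLB6* belong. Cln1 and Cln2 promote budding and the entry into S phase, Clb5 and Clb6 start DNA replication, Clb3 and Clb4 act from S phase to spindle assembly, and Clb1 and Clb2 drive mitosis and must be inactivated before replication origins can be licensed again.

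In the R64 reference, *CLN3* (YAL040C) is at chrI:65778-67520 on the minus strand, *CLN1* (YMR199W) at chrXIII:662644-664284 on the plus strand and *CLN2* (YPL256C) at chrXVI:64977-66614 on the minus strand. Of the S-phase cyclins, *CLB5* (YPR120C) is at chrXVI:773875-775182 and *CLB6* (YGR109C) at chrVII:705359-706501, both on the minus strand. *CLB3* (YDL155W) is at chrIV:176773-178056, *CLB4* (YLR210W) at chrXII:562008-563390, *CLB1* (YGR108W) at chrVII:703636-705051 and *CLB2* (YPR119W) at chrXVI:771653-773128, all on the plus strand. These spans are RefSeq gene models. *CLB1* and *CLB6* face each other with 307 bases between them, and *CLB2* and *CLB5* do so with 746 bases between them. The sources used here do not state that the libraries kept strand, so reads that run past the end of one gene cannot be told from antisense reads of its neighbour. The coding sequences of *CLN1* and *CLN2* were 68.2% identical over their aligned bases, *CLB1* and *CLB2* 68.1%, *CLB3* and *CLB4* 64.6% and *CLB5* and *CLB6* 63.5%. The longest identical run was 17 bases in the first and second of these pairs and 15 bases in the other two, so that no 31-base stretch was shared.

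RNA was sequenced from cells made polyploid by endoreplication in either of 2 ways, from arrested cells and from cycling cells. In the *mad1Δ bub2Δ* test, polyploid cells were *mad1Δ bub2Δ* cells, which lack spindle checkpoint genes, in nocodazole, a drug that takes microtubules apart. Arrested cells were the strain labelled WT (*MAD1 BUB2*) in nocodazole and cycling cells were *mad1Δ bub2Δ* cells without it, given the solvent DMSO. All 3 cell types were grown at 30 °C. Polyploid and cycling cells of this test differed in nocodazole as well as in ploidy, and drug and ploidy cannot be told apart between them. In the *cdc24-1 swe1Δ* test, every strain carried *cdc24-1*, a temperature-sensitive allele of a gene needed to bud, and lacked *SWE1*, which encodes a CDK inhibitory kinase. Polyploid cells of that test were kept at 37 °C, arrested cells also carried *cdc20-1*, an allele of the gene for an activator of the anaphase-promoting complex, and were kept at 37 °C, and cycling cells were the polyploid strain at 25 °C by the labels. Polyploid and cycling cells of that test therefore differed in temperature as well as in ploidy, and temperature and ploidy cannot be told apart between them. By the labels' protocol, cells were put at 37 °C when the experiment began, so every change from 0 h in polyploid and arrested cells of that test also spans a temperature shift. The strains are in the W303 background, the polyploid and cycling *cdc24-1 swe1Δ* strain being derived from an S288C strain by backcrossing to W303. Each genotype is 1 strain, and the arrested *cdc20-1* strain is *MATα* while the others are *MATa*. Mean DNA content by flow cytometry, in units of 1000 AU (arbitrary units, here kAU), was 425 to 452 at 16 h and 98.2 to 107 at 0 h in polyploid cells of the *mad1Δ bub2Δ* test, and 245 to 277 at 16 h and 104 to 113 at 0 h in those of the *cdc24-1 swe1Δ* test. It was 81.0 to 115 in all arrested and 83.9 to 107 in all cycling libraries.

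The 72 libraries, 3 cultures for each of 24 conditions, held 1597321 to 9987276 counts (median 6918124), of which 0.731% to 47.6% were ribosomal RNA. The library at 47.6% was polyploid replicate 1 at 12 h of the *cdc24-1 swe1Δ* test. That of 1597321 counts was polyploid replicate 3 at 16 h of that test, where replicate 2 held 3825482 counts and 16.7% ribosomal RNA. In this group *CLB6* had 11 to 73 counts. One library went against its label: arrested replicate 2 at 16 h of the same test held 152 counts of the deleted *SWE1*, against 0 in the other 14 arrested libraries of that test. It also had 490.0 CPM of *STE2*, the pheromone receptor gene of *MATa* cells, against 6.92 to 30.2 CPM in those 14 libraries of the *MATα* strain, and 27.2 CPM of *STE3*, the receptor gene of *MATα* cells, against 52.2 to 767 CPM. This library therefore held RNA that its labelled strain should lack. Called changes of arrested cells at 16 h in that test are given with and without it. So are the 16 h differences of *CLN1*, *CLB1*, *CLB3* and *CLB6* from polyploid cells, and the number of slopes called. Other differences at 16 h, counts over gene lists, TPM levels, ratios, correlations and figures include this library and are not given without it. *BUB2* had 0 counts in all *mad1Δ bub2Δ* libraries, while *MAD1* had 121 to 349 counts there, against 372 to 1012 in the *MAD1 BUB2* libraries of the same test. Which part of *MAD1* was replaced in the strain is not given in the sources used here.

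Levels are given as CPM, the counts of a gene scaled to the size of its library with edgeR's TMM factors, for each of the 3 cultures in the order of their replicate numbers. Changes are log2 values with the standard error (SE) of edgeR's quasi-likelihood fit, and a change was called at a Benjamini-Hochberg adjusted p under 0.05 over all genes tested. Every adjusted p below comes from edgeR unless another tool is named. CPM are shares of a library's counts and give no amount of transcript per cell. The samples are bulk cultures. Fewer cells in a given stage of the cycle and a lower share of the transcript within cells cannot be told apart.

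In the *mad1Δ bub2Δ* test, the cyclins of polyploid cells split into genes that fell early and genes that did not. Between 0 and 4 h, 5 of the 9 fell (*CLN1*, *CLN2*, *CLN3*, *CLB2* and *CLB6*) and 0 rose, beside 10.7% of all genes tested that fell and 13.8% that rose. At 8 h, these 5 and *CLB1* were below their 0 h level and 0 rose, beside 16.6% and 16.3% of all genes. The 8 h libraries of *CLN3* were spread from 49.8 to 112 CPM, against 117 to 149 CPM at 0 h, and *CLB6* had 6 to 10 counts. No result from other tools or with a culture left out is given for 8 h in either test. At 16 h, *CLN1*, *CLB1* and *CLB2* were still lower and *CLB4* was higher than at 0 h, beside 22% of all genes that fell and 22.7% that rose. *CLB3* and *CLB5* were called in neither direction at any of these times.

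The arrested cells of this test, in the same drug, went other ways. At 4 h, *CLN3* and *CLB1* had risen (20.4% of all genes rose) and *CLN1* had fallen (18.5% fell). At 8 h, *CLN2*, *CLN3*, *CLB1*, *CLB4* and *CLB5* were higher than at 0 h (29.5% of all genes) and *CLB2* was lower (25%). At 16 h, *CLB1* and *CLB4* were higher (31.5% of all genes) and *CLN1*, *CLB2* and *CLB3* were lower (26.3%). In cycling cells, *CLB1* and *CLB5* were higher at 16 h than at 0 h (20.8% of all genes) and *CLN3* was lower (16.6%).

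Tested directly, the change in polyploid cells was lower than that in arrested cells for 4 cyclins at 4 h (*CLN2*, *CLN3*, *CLB1* and *CLB2*) and for 6 at 8 h (the same 4, *CLN1* and *CLB4*), with 0 higher at either time. For all genes, 13.2% were lower and 12.9% higher at 4 h, and 20.7% and 16.8% at 8 h. By 16 h the difference was called for *CLB1*, lower in polyploid cells (12.7% of all genes), and for *CLB3*, higher (11.4%). Polyploid cells at 16 h also had less *CLN1*, *CLB1*, *CLB2* and *CLB5* than cycling cells at 16 h (31.5% of all genes were lower) and more *CLN3* (29.6% higher). The plot of CPM by time in this test shows the early dip of the polyploid cells.

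**Figure D1:**
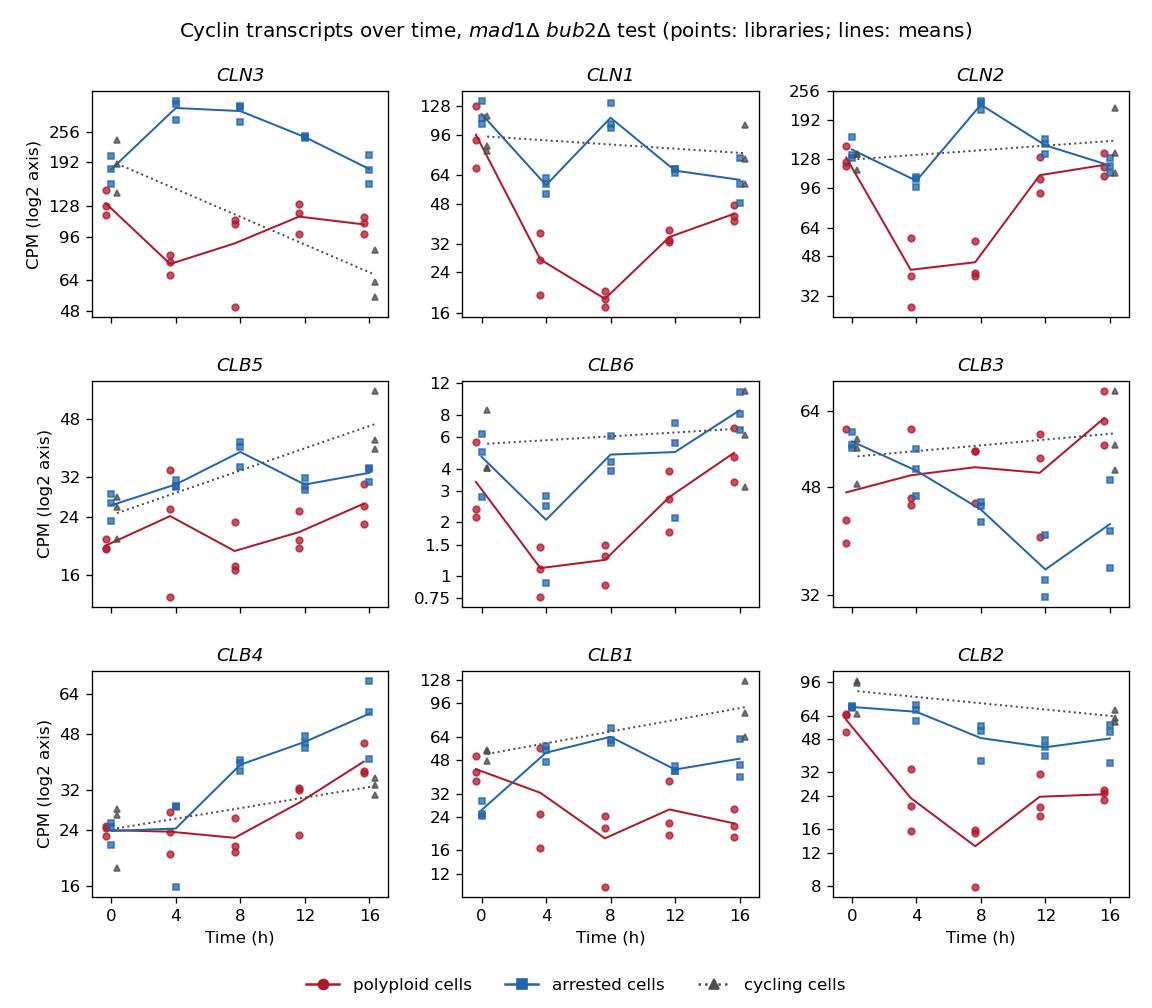
CPM of each cyclin (vertical log2 axis) against time in hours in the *mad1Δ bub2Δ* test; points are single libraries, lines join the means of 3 cultures, and cell types are offset sideways. Polyploid *CLN1* and *CLB2* are lowest at 8 h, at 16.9 to 19.8 and 7.90 to 15.8 CPM, while arrested *CLN2*, *CLN3* and *CLB1* are at or near their highest.

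In polyploid cells of the *cdc24-1 swe1Δ* test, 1 cyclin was below its 0 h level at 4 h and 1 at 8 h, and at 16 h all B-type cyclins except *CLB2* were above theirs. At 4 h, *CLN2*, *CLB1* and *CLB4* were higher than at 0 h, beside 16.8% of all genes, and *CLN1* was lower, beside 12%. At 8 h, *CLN3* was higher (16.8% of all genes) and *CLB2* lower (15%). At 16 h, 5 of the 6 B-type cyclins (*CLB1*, *CLB3*, *CLB4*, *CLB5* and *CLB6*) were higher and no cyclin was lower, beside 26.2% of all genes that rose and 23.3% that fell. *CLB2* was the exception among the B-type cyclins, at a log2 change of −0.31 ± 0.20 (SE, adjusted p = 0.193).

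In arrested cells of this test, *CLN3* and *CLB1* were higher at 4 h (20.9% of all genes) and *CLB6* was lower (20.7%). At 8 h, *CLN2*, *CLN3* and *CLB5* were higher (25.4% of all genes) and *CLB6* was lower (26.3%). At 16 h, *CLB4* and *CLB5* were higher (26.2%) and *CLN1* was lower (25.6%). Without the 16 h library that held *SWE1* counts, the changes of *CLN1* (log2 −1.27), *CLB4* (0.75) and *CLB5* (1.08) were still called. *CLN3* (log2 0.55, adjusted p = 0.0345) and *CLB1* (log2 0.57, adjusted p = 0.0446) were then also called, which made 5 cyclins in place of 3. The share of all genes called without that library is not given, so this count describes the fit and not the cyclins. Cycling cells showed 0 of 9 calls between 0 and 16 h in edgeR, DESeq2 and limma alike. In edgeR, 7.29% of all genes were called as risen and 6.59% as fallen. At an unadjusted p under 0.05 there was 1 of 9, and the share of all genes at that threshold is not given.

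The polyploid and arrested changes of this test gave no call at 4 h: 0 of 9 were called in edgeR, DESeq2 and limma. In edgeR, 4.13% of all genes were called higher and 2.96% lower. An unadjusted p under 0.05 was found for 3 of 9, and the share of all genes at that threshold is not given. Without polyploid replicate 2 the difference of *CLN2* at 4 h was called (log2 1.22, adjusted p = 0.015), and without polyploid replicate 3 that of *CLB4* (log2 0.99, adjusted p = 0.00833). At 8 h, *CLB3* was higher in polyploid cells (11.2% of all genes) and *CLN2* lower (12.2%). At 16 h, *CLN1* was higher in polyploid cells (5.41% of all genes) and 0 were lower (6.64%). With culture as a replicate block 4 cyclins were called, *CLB1*, *CLB3* and *CLB6* being added. The share of all genes called with the block is not given, so that count describes the fit and not the cyclins. Without polyploid replicate 3, *CLB6* was called beside *CLN1*. Against cycling cells at 16 h, polyploid cells had more *CLB1*, *CLB3*, *CLB5* and *CLB6* (30.2% of all genes) and less *CLB2* (26.3%).

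**Figure D2:**
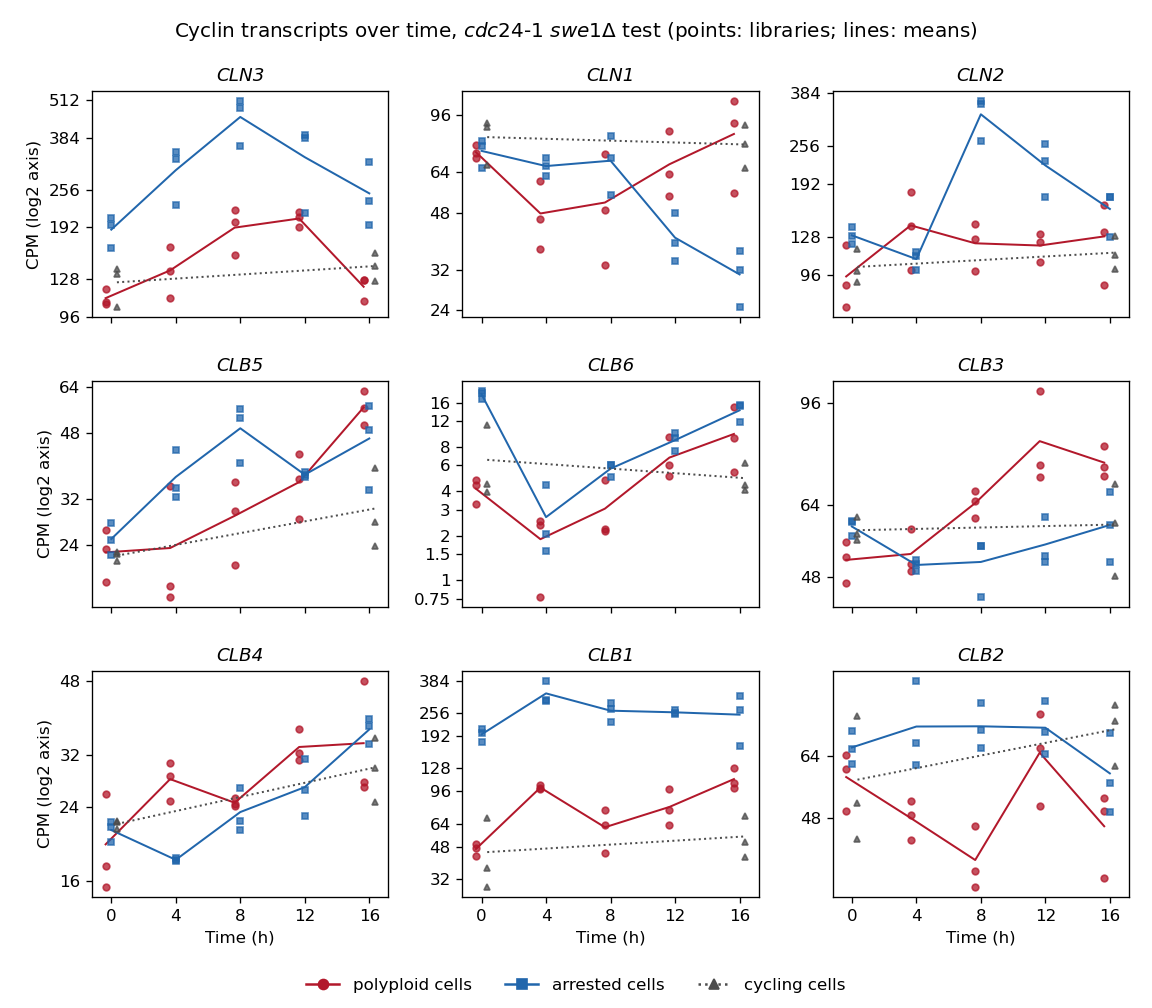
CPM of each cyclin (vertical log2 axis) against time in hours in the *cdc24-1 swe1Δ* test, drawn as for the other test. Arrested *CLB1* lies above 169 CPM at every time, while polyploid *CLB1* lies at 42.8 to 129 CPM, and *CLB6* is lowest at 4 h in both.

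The upstream sequences of the genes that fell in polyploid cells of the *mad1Δ bub2Δ* test are shown because they moved together at 8 h. The 1000 bases before each coding region were searched on both strands of the R64 (S288C) sequence, which may differ from that of W303, for the MBF motif ACGCGT, the SBF motif CNCGAAA and the forkhead motif GTAAACA. Of the 5996 windows of this length before protein-coding genes, 8.51% held the MBF motif, 34.2% the SBF motif and 17.8% the forkhead motif. *CLN1* held all 3 motifs, *CLN2* held the SBF motif at 4 places, *CLB6* held the MBF motif at 2 places and a forkhead motif, *CLB1* held an SBF and a forkhead motif and *CLB2* held an MBF and a forkhead motif. *CLB4*, which did not fall, held the SBF motif at 2 places and a forkhead motif. *CLN3*, *CLB3* and *CLB5* held none of the 3 in this window. Some matches lie outside the stretches printed below. They are the MBF match of *CLB2*, 939 to 934 bases before the start codon, and the SBF match of *CLN2* at 999 to 993. The SBF matches of *CLN1* at 452 to 446 and at 435 to 429 also lie outside. The stretches below run 5′ to 3′ towards the start codon, with the matches in capitals, from chrXIII:661842-662053 (plus strand, *CLN1*), chrXVI:67136-67230 (minus, *CLN2*), chrVII:706830-706914 (minus, *CLB6*), chrVII:702960-703024 (plus, *CLB1*) and chrXVI:770879-770905 (plus, *CLB2*).
CLN1: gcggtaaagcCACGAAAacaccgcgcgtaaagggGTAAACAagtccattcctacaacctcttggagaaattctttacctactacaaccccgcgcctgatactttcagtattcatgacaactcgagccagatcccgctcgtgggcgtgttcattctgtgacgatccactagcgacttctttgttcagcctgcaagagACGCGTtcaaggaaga
CLN2: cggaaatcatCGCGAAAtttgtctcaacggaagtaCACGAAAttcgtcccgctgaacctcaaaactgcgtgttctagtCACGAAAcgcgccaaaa
CLB6: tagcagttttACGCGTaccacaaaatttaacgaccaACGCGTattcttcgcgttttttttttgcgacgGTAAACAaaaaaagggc
CLB1: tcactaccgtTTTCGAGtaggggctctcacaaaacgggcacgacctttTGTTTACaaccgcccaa
CLB2: ttgtataataTGTTTACatattgagcc

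In the *CLN2* stretch, which ends 522 bases before the start codon, 3 SBF motifs stand within 95 bases, and in the *CLB6* stretch 2 MBF motifs and a forkhead motif stand within 85. The single forkhead match of *CLB2* and that of *CLB1* are both on the opposite strand, 764 to 758 and 628 to 622 bases before the start codon. *CLN3* fell without a match, and *CLB4* held 2 of the 3 motifs and did not fall.

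*CLN3*, the first cyclin of G1, moved in opposite directions in the polyploid and arrested cells of the *mad1Δ bub2Δ* test. Polyploid cells had 117, 149 and 128 CPM (0 h), 75.8, 80.6 and 66.8 CPM (4 h) and 108, 49.8 and 112 CPM (8 h). Later *CLN3* levels were 98.03, 130 and 120 CPM (12 h) and 98.4, 109 and 116 CPM (16 h). Arrested cells had 203, 180 and 157 CPM (0 h), 285, 341 and 332 CPM (4 h), 324, 327 and 280 CPM (8 h), 242, 243 and 246 CPM (12 h) and 205, 179 and 157 CPM (16 h). The 4 h libraries of polyploid cells were all below, and those of arrested cells all above, their 0 h libraries. The log2 change at 4 h was −0.82 ± 0.21 (SE, adjusted p = 0.00482) in polyploid cells and 0.83 ± 0.20 (SE, adjusted p = 0.00172) in arrested cells, and the difference was −1.65 ± 0.29 (SE, adjusted p = 8.68e-05). At 8 h the difference was −1.33 ± 0.29 (SE, adjusted p = 0.000502), and at 16 h it was −0.29 ± 0.29 (SE, adjusted p = 0.502). The arrested call at 4 h was lost without arrested replicate 3 (adjusted p = 0.0517).

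Cycling cells of this test had 63.1, 54.4 and 84.4 CPM at 16 h and 188, 237 and 144 CPM at 0 h of *CLN3*, a log2 change of −1.50 ± 0.21 (SE, adjusted p = 1.48e-05), with all 16 h libraries below the 0 h libraries. That fall left cycling cells below polyploid cells at 16 h, with a log2 difference of 0.68 ± 0.21 (SE, adjusted p = 0.00602), although polyploid cells had not risen.

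Polyploid cells of the *cdc24-1 swe1Δ* test had 119, 106 and 107 CPM (0 h), 137, 164 and 111 CPM (4 h) and 155, 200 and 218 CPM (8 h) of *CLN3*. Later *CLN3* levels were 216, 192 and 208 CPM (12 h) and 108, 127 and 127 CPM (16 h). Arrested cells had 206, 196 and 163 CPM (0 h), 342, 227 and 325 CPM (4 h), 481, 510 and 360 CPM (8 h), 393, 383 and 213 CPM (12 h) and 317, 196 and 235 CPM (16 h). The 8 and 12 h libraries were all above those of 0 h in both cell types while those of 16 h overlapped them. In arrested cells that overlap came from the library that held *SWE1* counts (196 CPM), and without it *CLN3* was called at 16 h (log2 0.55, adjusted p = 0.0345). Its highest level in the series, 360 to 510 CPM, was in arrested cells at 8 h. The log2 change at 8 h was 0.79 ± 0.21 (SE, adjusted p = 0.00422) in polyploid cells and 1.26 ± 0.21 (SE, adjusted p = 7.02e-06) in arrested cells, and their difference, −0.47 ± 0.29 (SE, adjusted p = 0.254), was not called. The 4 h call in arrested cells, 0.67 ± 0.21 (SE, adjusted p = 0.00971), was lost without arrested replicate 1 (adjusted p = 0.0532) or replicate 3 (adjusted p = 0.0886). Cycling cells had 157, 142 and 127 CPM at 16 h and 133, 103 and 139 CPM at 0 h.

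*CLN1* and *CLN2*, the paired G1 cyclins of Start, were both lower at 4 and 8 h in polyploid cells of the *mad1Δ bub2Δ* test. *CLN1* had 68.4, 90.99 and 129 CPM (0 h), 27.04, 35.8 and 19.02 CPM (4 h) and 19.8, 18.4 and 16.9 CPM (8 h) in polyploid cells. Later *CLN1* levels were 32.5, 36.9 and 33.4 CPM (12 h) and 42.5, 40.1 and 47.1 CPM (16 h). In arrested cells it had 135, 107 and 113 CPM (0 h), 52.98, 62.1 and 58.2 CPM (4 h), 132, 103 and 107 CPM (8 h), 67.6, 65.05 and 67.9 CPM (12 h) and 48.3, 58.2 and 76.3 CPM (16 h). All polyploid libraries from 4 h on were below those of 0 h, and at 8 h polyploid and arrested libraries were far apart. The log2 change at 8 h was −2.38 ± 0.23 (SE, adjusted p = 3.45e-09) in polyploid cells, 0.192 times the 0 h level, and −0.05 ± 0.21 (SE, adjusted p = 0.849) in arrested cells, with a difference of −2.33 ± 0.31 (SE, adjusted p = 5.06e-07). Both cell types had fallen at 4 h, with log2 changes of −1.81 ± 0.22 (SE, adjusted p = 6.97e-07) in polyploid and −1.03 ± 0.21 (SE, adjusted p = 0.000277) in arrested cells. The difference at that time, −0.78 ± 0.30 (SE, adjusted p = 0.0554), was called with culture as a replicate block (adjusted p = 0.0378), by DESeq2 (adjusted p = 0.0431) and without polyploid replicate 1 (adjusted p = 0.0416) or replicate 2 (adjusted p = 0.0257). At 16 h the changes were −1.15 ± 0.22 (SE, adjusted p = 6.94e-05) in polyploid cells and −0.95 ± 0.21 (SE, adjusted p = 0.000334) in arrested cells.

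*CLN2* had 120, 124 and 147 CPM (0 h), 39.03, 57.5 and 28.6 CPM (4 h) and 40.4, 39.1 and 55.7 CPM (8 h) in polyploid cells. Later *CLN2* levels were 91.1, 131 and 105 CPM (12 h) and 108, 136 and 119 CPM (16 h). Arrested cells had 160, 134 and 130 CPM (0 h), 96.9, 107 and 105 CPM (4 h), 211, 232 and 227 CPM (8 h), 158, 135 and 150 CPM (12 h) and 120, 129 and 112 CPM (16 h). The polyploid libraries of 4 and 8 h were all below 0 h, and those of 12 and 16 h overlapped it, whereas the arrested libraries of 8 h were all above 0 h. The log2 change in polyploid cells was −1.65 ± 0.20 (SE, adjusted p = 9.3e-07) at 4 h, −1.54 ± 0.20 (SE, adjusted p = 1.3e-06) at 8 h and −0.11 ± 0.20 (SE, adjusted p = 0.692) at 16 h. In arrested cells it was −0.46 ± 0.20 (SE, adjusted p = 0.0666) at 4 h, called with culture as a replicate block (adjusted p = 0.038), and 0.66 ± 0.20 (SE, adjusted p = 0.00552) at 8 h. The polyploid minus arrested difference was −1.19 ± 0.28 (SE, adjusted p = 0.00193) at 4 h and −2.20 ± 0.28 (SE, adjusted p = 3.4e-07) at 8 h, and by 16 h it was 0.13 ± 0.28 (SE, adjusted p = 0.781). At 16 h *CLN2* of polyploid cells thus overlapped its starting level while *CLN1* was at 0.451 times its own.

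Cycling *mad1Δ bub2Δ* cells had 58.5, 75.1 and 106 CPM at 16 h and 85.5, 81.5 and 116 CPM at 0 h of *CLN1*. They had 112, 137 and 216 CPM at 16 h and 116, 135 and 135 CPM at 0 h of *CLN2*. Neither change was called. Against these cycling cells at 16 h, polyploid cells differed by −0.88 ± 0.22 (SE, adjusted p = 0.000849) for *CLN1* and −0.36 ± 0.20 (SE, adjusted p = 0.117) for *CLN2*. Without cycling replicate 1 the *CLN2* difference was called (log2 −0.54, adjusted p = 0.026). On the deposited log2(TPM + 1) values, where the median gene was 0.99 higher in this comparison than in edgeR, limma gave 0.19 for *CLN1* (adjusted p = 0.502) and 0.72 for *CLN2* (adjusted p = 0.011).

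In the *cdc24-1 swe1Δ* test, *CLN1* was called lower and *CLN2* higher at 4 h in polyploid cells. In its arrested cells *CLN2* was higher at 8 h and *CLN1* lower at 16 h. *CLN1* had 73.4, 77.4 and 70.6 CPM (0 h), 45.8, 37.1 and 60.3 CPM (4 h) and 33.2, 48.9 and 72.7 CPM (8 h) in polyploid cells. Later *CLN1* levels were 54.2, 63.2 and 85.7 CPM (12 h) and 55.1, 106 and 90.7 CPM (16 h). In arrested cells it had 79.97, 77.3 and 66.1 CPM (0 h), 67.05, 62.5 and 71.05 CPM (4 h), 70.9, 83.01 and 54.5 CPM (8 h), 47.9, 38.7 and 34.1 CPM (12 h) and 36.5, 31.9 and 24.6 CPM (16 h). The arrested libraries of 12 and 16 h were all below those of 0 h, and the polyploid ones of 16 h overlapped 0 h. By 16 h the log2 change was 0.18 ± 0.24 (SE, adjusted p = 0.559) in polyploid cells and −1.26 ± 0.24 (SE, adjusted p = 7.83e-05) in arrested cells, and the difference, 1.43 ± 0.34 (SE, adjusted p = 0.00536), was the one cyclin call between the cell types at 16 h. Without the library that held *SWE1* counts the difference was 1.45 (adjusted p = 0.00819), and limma on log2(TPM + 1) gave 1.38 (adjusted p = 0.0842). The fall of *CLN1* in polyploid cells at 4 h, −0.63 ± 0.24 (SE, adjusted p = 0.0443), was lost without polyploid replicate 1 (adjusted p = 0.0966) or replicate 2 (adjusted p = 0.313).

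*CLN2* had 89.04, 121 and 75.4 CPM (0 h), 140, 99.9 and 181 CPM (4 h) and 98.8, 126 and 142 CPM (8 h) in polyploid cells. Later *CLN2* levels were 106, 124 and 131 CPM (12 h) and 89.3, 164 and 133 CPM (16 h). In arrested cells it had 139, 129 and 122 CPM (0 h), 115, 99.7 and 111 CPM (4 h), 361, 352 and 266 CPM (8 h), 261, 229 and 174 CPM (12 h) and 174, 129 and 174 CPM (16 h). Polyploid libraries overlapped 0 h at every time, and arrested ones were all above 0 h at 8 and 12 h. The log2 change of arrested cells was −0.26 ± 0.21 (SE, adjusted p = 0.338) at 4 h and 1.33 ± 0.21 (SE, adjusted p = 4.67e-06) at 8 h. The polyploid minus arrested difference was 0.82 ± 0.30 (SE, adjusted p = 0.0954) at 4 h and −0.97 ± 0.30 (SE, adjusted p = 0.0175) at 8 h. The call in polyploid cells at 4 h, 0.56 ± 0.21 (SE, adjusted p = 0.0448), was lost without polyploid replicate 1 (adjusted p = 0.158) or replicate 3 (log2 0.19, adjusted p = 0.604). Cycling cells had 66.03, 78.0 and 89.7 CPM at 16 h and 88.2, 90.6 and 67.5 CPM at 0 h of *CLN1*. They had 101, 112 and 129 CPM at 16 h and 91.2, 117 and 98.8 CPM at 0 h of *CLN2*.

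The ratio of *CLN2* to *CLN1* is given as a description, from TPM, which are scaled to the library and also take gene length into account, and which were recovered from the deposited log2(TPM + 1) values. In polyploid cells of the *mad1Δ bub2Δ* test it was 1.42 ± 0.309 (SD, n = 3, 0 h), 1.52 ± 0.0825 (4 h), 2.49 ± 0.701 (8 h), 3.17 ± 0.375 (12 h) and 2.83 ± 0.501 (16 h). In the arrested *cdc20-1* cells it was 1.76 ± 0.0898 (0 h), 1.63 ± 0.0793 (4 h), 4.75 ± 0.443 (8 h), 5.50 ± 0.421 (12 h) and 5.30 ± 1.57 (16 h), the 8 to 16 h libraries all lying above the rest of the series. The ratio was above 1 in all 72 libraries.

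**Figure D3:**
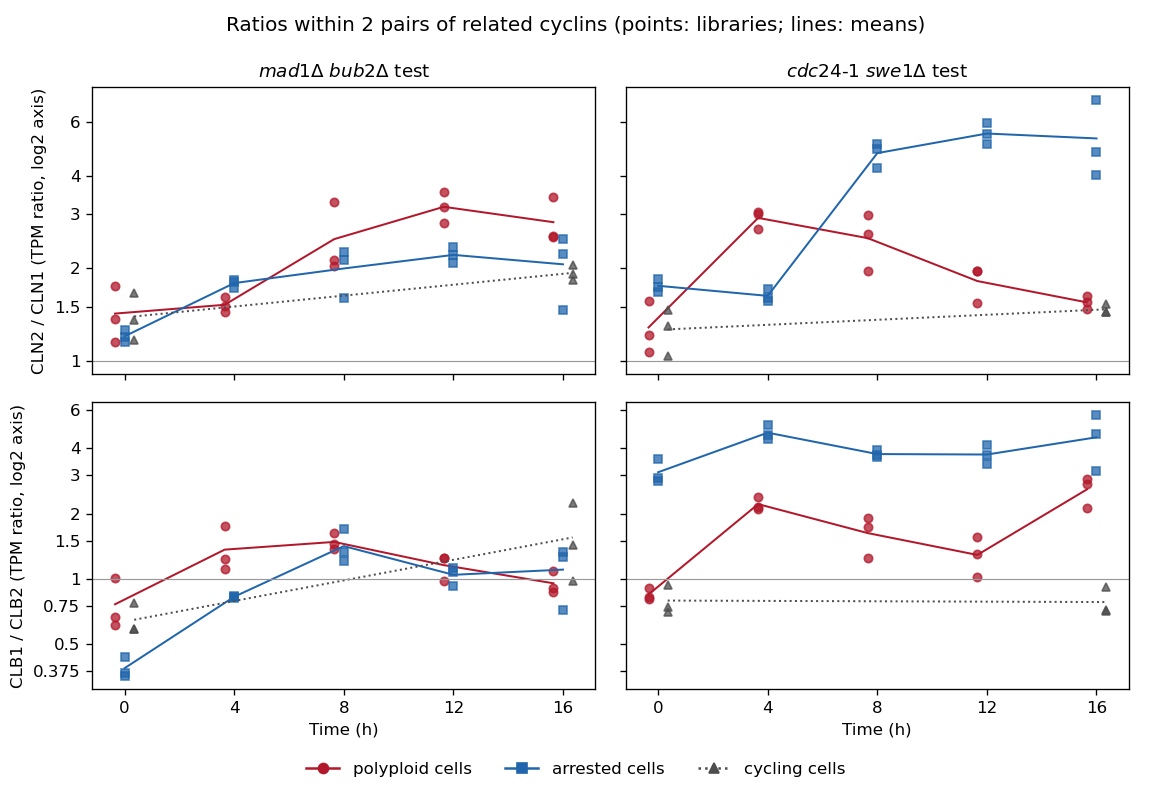
Ratio of TPM of *CLN2* to *CLN1* (top) and of *CLB1* to *CLB2* (bottom), on log2 axes, against time in hours in both tests; points are libraries, lines join the means of 3 cultures, and the grey line marks equal levels. Arrested cells of the *cdc24-1 swe1Δ* test reach 4.04 to 7.07 for *CLN2* to *CLN1* at 16 h and stay at 2.84 to 5.67 for *CLB1* to *CLB2* at all times.

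Among the S-phase cyclins, *CLB5* changed little in polyploid cells of the *mad1Δ bub2Δ* test and rose late in those of the *cdc24-1 swe1Δ* test. *CLB5* had 19.3, 19.1 and 20.5 CPM (0 h), 33.5, 25.4 and 13.7 CPM (4 h) and 16.5, 17.1 and 23.1 CPM (8 h) in polyploid *mad1Δ bub2Δ* cells. Later *CLB5* levels were 25.2, 20.4 and 19.3 CPM (12 h) and 22.9, 30.4 and 25.96 CPM (16 h). Arrested cells had 23.4, 26.7 and 28.4 CPM (0 h), 30.01, 29.7 and 31.2 CPM (4 h), 40.8, 39.5 and 34.2 CPM (8 h), 29.1, 31.8 and 29.9 CPM (12 h) and 30.8, 33.8 and 34.01 CPM (16 h). The polyploid libraries of 4, 8 and 12 h overlapped those of 0 h and those of 16 h were above them, and the arrested ones were above 0 h at every later time. The arrested change at 8 h, 0.54 ± 0.21 (SE, adjusted p = 0.0298), was the only call. By 16 h the log2 change was 0.43 ± 0.21 (SE, adjusted p = 0.106) in polyploid cells and 0.33 ± 0.21 (SE, adjusted p = 0.189) in arrested cells. The difference between them was 0.10 ± 0.30 (SE, adjusted p = 0.856) at 4 h, −0.60 ± 0.30 (SE, adjusted p = 0.119) at 8 h and 0.10 ± 0.30 (SE, adjusted p = 0.848) at 16 h. The change of polyploid cells at 4 h, 0.31 ± 0.21 (SE, adjusted p = 0.31), was called without polyploid replicate 3 (log2 0.62, adjusted p = 0.035).

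Cycling cells of the *mad1Δ bub2Δ* test had 39.04, 58.7 and 41.5 CPM at 16 h and 20.6, 25.8 and 27.8 CPM at 0 h of *CLB5*, all 16 h libraries lying above those of 0 h. The log2 change was 0.91 ± 0.21 (SE, adjusted p = 0.00156), and without cycling replicate 2 it was not called (log2 0.73, adjusted p = 0.0531). Polyploid cells at 16 h were lower than these cells by a log2 difference of −0.81 ± 0.21 (SE, adjusted p = 0.0014). On log2(TPM + 1), with the shift of 0.99 given above, that difference was 0.24 (adjusted p = 0.266).

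*CLB5* had 23.4, 19.1 and 26.3 CPM (0 h), 18.6, 17.4 and 34.6 CPM (4 h) and 21.3, 29.6 and 35.4 CPM (8 h) in polyploid cells of the *cdc24-1 swe1Δ* test. Later *CLB5* levels were 28.1, 36.1 and 42.02 CPM (12 h) and 50.4, 56.1 and 62.3 CPM (16 h). Arrested cells had 27.4, 22.5 and 24.8 CPM (0 h), 34.1, 43.2 and 32.4 CPM (4 h), 39.9, 52.5 and 55.8 CPM (8 h), 36.98, 36.6 and 37.7 CPM (12 h) and 48.8, 33.7 and 56.7 CPM (16 h). All polyploid libraries of 16 h were above 0 h, with a log2 change of 1.29 ± 0.24 (SE, adjusted p = 4.71e-05) against 0.90 ± 0.23 (SE, adjusted p = 0.00181) in arrested cells. The difference was 0.39 ± 0.33 (SE, adjusted p = 0.477). The arrested call at 16 h was lost without arrested replicate 3 (adjusted p = 0.0554), and the change at 4 h, 0.55 ± 0.23 (SE, adjusted p = 0.0561), was called with culture as a replicate block (adjusted p = 0.0275). Cycling cells had 23.9, 27.7 and 38.6 CPM at 16 h and 21.8, 22.9 and 22.7 CPM at 0 h, and polyploid cells at 16 h were above them by a log2 difference of 0.90 ± 0.23 (SE, adjusted p = 0.00153).

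*CLB6* had 6 to 140 counts per library and the lowest mean TPM of the 9 in every condition except arrested *cdc20-1* cells at 0 h, where *CLB4* was lower (11.9 TPM, against 12.8 TPM of *CLB6*). Polyploid *mad1Δ bub2Δ* cells had 2.13, 5.602 and 2.38 CPM (0 h), 0.765, 1.46 and 1.101 CPM (4 h) and 0.894, 1.303 and 1.5 CPM (8 h). Later *CLB6* levels were 1.76, 3.86 and 2.696 CPM (12 h) and 6.703, 3.34 and 4.63 CPM (16 h). Arrested cells had 6.21, 2.78 and 4.97 CPM (0 h), 0.919, 2.799 and 2.48 CPM (4 h), 4.35, 6.12 and 3.89 CPM (8 h), 5.54, 7.195 and 2.11 CPM (12 h) and 6.56, 10.8 and 8.08 CPM (16 h). Polyploid libraries were all below 0 h at 4 and 8 h and overlapped it at 12 and 16 h. The log2 change in polyploid cells was −1.59 ± 0.57 (SE, adjusted p = 0.0393) at 4 h and −1.44 ± 0.56 (SE, adjusted p = 0.0499) at 8 h, and that of arrested cells at 4 h was −1.15 ± 0.51 (SE, adjusted p = 0.0764). The call at 4 h was lost without any one of the polyploid cultures (adjusted p = 0.155 without replicate 1, 0.217 without replicate 2 and 0.0762 without replicate 3), and the difference from arrested cells, −0.44 ± 0.76 (SE, adjusted p = 0.721), was not called.

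The arrested strain of the *cdc24-1 swe1Δ* test had more *CLB6* from the start. Polyploid cells had 4.45, 3.27 and 4.79 CPM (0 h), 0.77, 2.54 and 2.38 CPM (4 h) and 2.15, 2.23 and 4.79 CPM (8 h). Later *CLB6* levels were 5.05, 6.002 and 9.29 CPM (12 h) and 9.15, 14.9 and 5.39 CPM (16 h). Arrested cells had 16.9, 18.5 and 19.2 CPM (0 h), 4.403, 2.06 and 1.57 CPM (4 h), 6.005, 5.04 and 6.07 CPM (8 h), 9.18, 7.54 and 10.01 CPM (12 h) and 15.5, 11.9 and 15.2 CPM (16 h). All 4 h libraries were below those of 0 h in both cell types, and at 16 h polyploid libraries were above and arrested libraries below their 0 h level. The log2 change at 4 h was −1.11 ± 0.45 (SE, adjusted p = 0.0613) in polyploid cells, called with culture as a replicate block (adjusted p = 0.0336), and −2.73 ± 0.43 (SE, adjusted p = 6.56e-06) in arrested cells. At 16 h it was 1.27 ± 0.42 (SE, adjusted p = 0.0127) in polyploid cells and −0.36 ± 0.39 (SE, adjusted p = 0.454) in arrested cells, with a difference of 1.64 ± 0.57 (SE, adjusted p = 0.0576) that the block (adjusted p = 0.0359) and DESeq2 (adjusted p = 0.0298) called. Without the library that held *SWE1* counts it was 1.52 (adjusted p = 0.0924), and without polyploid replicate 3 it was called (log2 1.99, adjusted p = 0.0274). The rise in polyploid cells was lost without polyploid replicate 2 (log2 0.72, adjusted p = 0.291). Cycling cells of this test had 4.11, 6.25 and 4.39 CPM at 16 h and 4.46, 11.2 and 3.97 CPM at 0 h, and those of the other test had 3.14, 6.14 and 10.9 CPM at 16 h and 4.01, 8.50 and 4.01 CPM at 0 h. Polyploid cells at 16 h differed from cycling cells by 1.03 ± 0.42 (SE, adjusted p = 0.035) at 37 °C against 25 °C, a call lost without cycling replicate 1 (adjusted p = 0.105), cycling replicate 3 (adjusted p = 0.0818) or polyploid replicate 2 (log2 0.63, adjusted p = 0.274).

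*CLB3* and *CLB4*, which act between S phase and spindle assembly, did not share the early fall of polyploid cells in the *mad1Δ bub2Δ* test. *CLB3* had 59.8, 42.5 and 39.03 CPM (0 h), 46.04, 59.6 and 44.97 CPM (4 h) and 55.0, 45.2 and 55.1 CPM (8 h) in polyploid cells. Later *CLB3* levels were 39.9, 58.7 and 53.5 CPM (12 h) and 56.2, 61.6 and 68.9 CPM (16 h). In arrested cells it had 55.7, 59.05 and 56.4 CPM (0 h), 46.5, 51.4 and 55.4 CPM (4 h), 44.8, 42.2 and 45.5 CPM (8 h), 31.8, 33.9 and 40.1 CPM (12 h) and 40.7, 35.4 and 49.3 CPM (16 h). Polyploid libraries overlapped 0 h at every time, and arrested ones were below 0 h at every later time. The change by 16 h was 0.40 ± 0.17 (SE, adjusted p = 0.0504) in polyploid cells and −0.44 ± 0.17 (SE, adjusted p = 0.0248) in arrested cells, and the difference was 0.84 ± 0.24 (SE, adjusted p = 0.00974). The polyploid change was called by DESeq2 (adjusted p = 0.0338), with DESeq2 size factors in edgeR (adjusted p = 0.0327) and with ribosomal RNA removed (adjusted p = 0.0365), and without polyploid replicate 1 it was log2 0.68 (adjusted p = 0.00439). The arrested call was lost without arrested replicate 1 (adjusted p = 0.106) or replicate 2 (adjusted p = 0.241). The difference was lost without arrested replicate 2 (adjusted p = 0.0861) or polyploid replicate 3 (adjusted p = 0.078). On log2(TPM + 1), where the median gene of arrested cells was 0.75 higher than in edgeR, *CLB3* of arrested cells had a change of 0.32 (adjusted p = 0.183).

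Polyploid cells of the *cdc24-1 swe1Δ* test had 51.99, 46.9 and 55.1 CPM (0 h), 49.2, 50.5 and 58.04 CPM (4 h) and 60.8, 64.9 and 67.6 CPM (8 h) of *CLB3*. Later *CLB3* levels were 75.1, 71.6 and 101 CPM (12 h) and 71.9, 74.5 and 80.9 CPM (16 h). Arrested cells had 59.9, 59.7 and 56.4 CPM (0 h), 49.2, 50.5 and 51.2 CPM (4 h), 54.2, 54.2 and 44.3 CPM (8 h), 50.9, 60.9 and 52.1 CPM (12 h) and 67.3, 50.8 and 59.05 CPM (16 h). All polyploid libraries of 8, 12 and 16 h were above those of 0 h, and arrested ones of 16 h overlapped it. By 16 h the log2 change was 0.56 ± 0.14 (SE, adjusted p = 0.00147) in polyploid cells and 0.01 ± 0.14 (SE, adjusted p = 0.962) in arrested cells. The difference was 0.53 ± 0.20 (SE, adjusted p = 0.0479) at 8 h and 0.55 ± 0.20 (SE, adjusted p = 0.0653) at 16 h, the last called with culture as a replicate block (adjusted p = 0.0447) and 0.45 (adjusted p = 0.135) without the library that held *SWE1* counts. Cycling cells had 48.2, 69.7 and 59.6 CPM at 16 h and 57.0, 60.8 and 55.6 CPM at 0 h in this test. Cycling *mad1Δ bub2Δ* cells had 51.1, 56.3 and 68.9 CPM at 16 h and 57.4, 55.7 and 48.6 CPM at 0 h. Polyploid cells at 16 h differed from cycling cells by a log2 value of 0.08 ± 0.17 (SE, adjusted p = 0.678) in that test. The difference was 0.35 ± 0.14 (SE, adjusted p = 0.0314) at 37 °C against 25 °C, a call lost without any one of the polyploid cultures (adjusted p = 0.0507, 0.0651 and 0.0614) or without cycling replicate 1 (log2 0.22, adjusted p = 0.218) or replicate 3 (adjusted p = 0.0614).

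*CLB4* was higher at 16 h than at 0 h in polyploid and arrested cells of both tests. In cycling cells of both tests all 16 h libraries also lay above those of 0 h, without a call. Polyploid *mad1Δ bub2Δ* cells had 24.3, 24.7 and 22.9 CPM (0 h), 23.6, 27.4 and 20.1 CPM (4 h) and 20.4, 26.2 and 21.4 CPM (8 h). Later *CLB4* levels were 32.1, 32.4 and 23.1 CPM (12 h) and 36.1, 45.05 and 36.6 CPM (16 h). Arrested cells had 25.3, 21.6 and 24.6 CPM (0 h), 15.9, 28.6 and 28.3 CPM (4 h), 39.6, 36.7 and 38.9 CPM (8 h), 45.04, 47.4 and 43.5 CPM (12 h) and 39.95, 70.3 and 56.2 CPM (16 h). At 16 h all libraries of both were above their 0 h libraries. By 16 h the log2 change was 0.71 ± 0.20 (SE, adjusted p = 0.00534) in polyploid cells, lost without polyploid replicate 2 (adjusted p = 0.0583), and 1.22 ± 0.20 (SE, adjusted p = 7.96e-06) in arrested cells. Arrested cells had already risen at 8 h, with a log2 change of 0.69 ± 0.20 (SE, adjusted p = 0.00496). The difference was −0.77 ± 0.29 (SE, adjusted p = 0.0367) at that time, and at 16 h it was −0.51 ± 0.29 (SE, adjusted p = 0.211).

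*CLB4* had 15.5, 17.4 and 25.8 CPM (0 h), 24.9, 30.7 and 28.5 CPM (4 h) and 25.3, 24.2 and 24.4 CPM (8 h) in polyploid cells of the *cdc24-1 swe1Δ* test. Later *CLB4* levels were 31.2, 32.3 and 36.8 CPM (12 h) and 26.8, 27.5 and 48.05 CPM (16 h). Arrested cells had 19.9, 22.1 and 21.5 CPM (0 h), 17.99, 18.1 and 17.8 CPM (4 h), 22.3, 21.2 and 26.6 CPM (8 h), 31.2, 26.4 and 22.8 CPM (12 h) and 34.03, 38.95 and 37.4 CPM (16 h). The change by 16 h was 0.77 ± 0.20 (SE, adjusted p = 0.00172) in polyploid cells and 0.79 ± 0.19 (SE, adjusted p = 0.000891) in arrested cells, with a difference of −0.03 ± 0.27 (SE, adjusted p = 0.965). All libraries of 12 and 16 h were above those of 0 h in both. The rise of polyploid cells at 4 h, 0.52 ± 0.19 (SE, adjusted p = 0.0401), with overlapping libraries, was lost without polyploid replicate 1 (adjusted p = 0.187) or replicate 2 (adjusted p = 0.309). Cycling cells had 24.7, 29.8 and 35.1 CPM at 16 h and 22.2, 22.3 and 21.2 CPM at 0 h in this test, and polyploid cells at 16 h differed from them by 0.16 ± 0.19 (SE, adjusted p = 0.488). Cycling *mad1Δ bub2Δ* cells had 30.8, 34.8 and 33.2 CPM at 16 h and 27.9, 26.7 and 18.3 CPM at 0 h, and polyploid cells differed from those by 0.25 ± 0.20 (SE, adjusted p = 0.277).

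The mitotic cyclin *CLB2* fell to 0.213 times its 0 h level by 8 h in polyploid cells of the *mad1Δ bub2Δ* test and was still lower at 16 h. Polyploid cells had 65.5, 64.3 and 52.3 CPM (0 h), 15.7, 33.2 and 21.2 CPM (4 h) and 7.899, 15.8 and 15.2 CPM (8 h). Later *CLB2* levels were 31.4, 20.9 and 18.9 CPM (12 h) and 25.7, 24.99 and 22.7 CPM (16 h). Arrested cells had 70.7, 71.97 and 70.6 CPM (0 h), 59.7, 68.2 and 73.1 CPM (4 h), 56.0, 36.5 and 53.3 CPM (8 h), 47.7, 43.5 and 39.1 CPM (12 h) and 57.3, 35.7 and 52.03 CPM (16 h). Every polyploid library after 0 h was below every arrested library of the test. The log2 change of polyploid cells was −1.38 ± 0.24 (SE, adjusted p = 0.000126) at 4 h, −2.23 ± 0.25 (SE, adjusted p = 8.51e-08) at 8 h and −1.31 ± 0.24 (SE, adjusted p = 4.96e-05) at 16 h. In arrested cells it was −0.09 ± 0.23 (SE, adjusted p = 0.8) at 4 h, −0.54 ± 0.23 (SE, adjusted p = 0.0482) at 8 h and −0.55 ± 0.23 (SE, adjusted p = 0.0448) at 16 h. The difference was −1.30 ± 0.33 (SE, adjusted p = 0.00381) at 4 h, −1.69 ± 0.34 (SE, adjusted p = 2e-04) at 8 h and −0.76 ± 0.33 (SE, adjusted p = 0.0953) at 16 h. The arrested call at 16 h was lost without any one of the arrested cultures (adjusted p = 0.0637, 0.306 and 0.114), and on log2(TPM + 1), with the shift of 0.75 named above, the arrested value was 0.20 (adjusted p = 0.503).

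Cycling cells of the *mad1Δ bub2Δ* test had 68.8, 58.9 and 62.4 CPM at 16 h and 95.6, 97.7 and 65.1 CPM at 0 h of *CLB2*. All polyploid libraries of 16 h were below them, with a log2 difference of −1.37 ± 0.24 (SE, adjusted p = 1.56e-05), which on log2(TPM + 1) was −0.31 (adjusted p = 0.296). In the *cdc24-1 swe1Δ* test, polyploid cells had 49.5, 64.5 and 60.2 CPM (0 h), 43.3, 51.9 and 48.7 CPM (4 h) and 34.8, 37.4 and 46.1 CPM (8 h). Later *CLB2* levels were 50.7, 77.9 and 66.6 CPM (12 h) and 52.6, 49.6 and 36.3 CPM (16 h). Arrested cells had 66.2, 71.9 and 61.8 CPM (0 h), 90.95, 61.4 and 68.2 CPM (4 h), 72.3, 82.1 and 66.4 CPM (8 h), 64.8, 82.9 and 71.6 CPM (12 h) and 71.2, 56.6 and 49.4 CPM (16 h). The polyploid libraries of 8 h were all below 0 h, with a log2 change of −0.56 ± 0.20 (SE, adjusted p = 0.0287), and those of 12 and 16 h overlapped it. Cycling cells had 61.3, 81.1 and 75.4 CPM at 16 h and 51.4, 77.2 and 43.4 CPM at 0 h. The difference of polyploid from cycling cells at 16 h was −0.63 ± 0.20 (SE, adjusted p = 0.00768), lost without polyploid replicate 3 (adjusted p = 0.053). It was 0.044 (adjusted p = 0.911) by limma on log2(TPM + 1), where the median gene was 0.65 higher than in edgeR.

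*CLB1*, the partner of *CLB2* in mitosis, had the largest fold between condition means of the 9, at 17.66, with *CLB6* at 16.44. Mean *CLB1* ran from 18.55 CPM in polyploid cells of the *mad1Δ bub2Δ* test at 8 h to 328 CPM in arrested *cdc20-1* cells at 4 h. That *cdc20-1* strain was already at a mean of 196 CPM of *CLB1* at 0 h. Polyploid *mad1Δ bub2Δ* cells had 41.5, 37.3 and 50.4 CPM (0 h), 16.6, 55.4 and 24.8 CPM (4 h) and 10.3, 24.4 and 21.01 CPM (8 h). Later *CLB1* levels were 37.3, 19.4 and 22.4 CPM (12 h) and 26.5, 21.5 and 18.9 CPM (16 h). Arrested cells had 24.9, 24.4 and 29.2 CPM (0 h), 46.9, 54.1 and 56.9 CPM (4 h), 70.8, 59.3 and 61.4 CPM (8 h), 42.1, 44.7 and 41.9 CPM (12 h) and 39.3, 45.1 and 62.3 CPM (16 h). All polyploid libraries of 8 and 16 h were below those of 0 h, and all arrested libraries from 4 h on were above theirs. The log2 change at 8 h was −1.22 ± 0.32 (SE, adjusted p = 0.00373) in polyploid cells and 1.28 ± 0.31 (SE, adjusted p = 0.000798) in arrested cells. At 16 h it was −0.95 ± 0.31 (SE, adjusted p = 0.0137) in polyploid cells and 0.90 ± 0.31 (SE, adjusted p = 0.0142) in arrested cells. The difference was −1.43 ± 0.43 (SE, adjusted p = 0.0141) at 4 h, −2.50 ± 0.44 (SE, adjusted p = 3.83e-05) at 8 h and −1.85 ± 0.44 (SE, adjusted p = 0.00265) at 16 h.

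Some of these calls rest on single cultures. Polyploid replicate 2 had 55.4 CPM at 4 h, above its 0 h level, and without it *CLB1* had fallen at that time (log2 −1.15, adjusted p = 0.0112) where with all 3 cultures the change was −0.42 ± 0.31 (SE, adjusted p = 0.327). The polyploid call at 16 h was lost without polyploid replicate 3 (adjusted p = 0.152). The arrested call at 4 h was lost without any one arrested culture (adjusted p = 0.0605, 0.0996 and 0.0618) and that at 16 h without arrested replicate 2 (0.0789) or 3 (0.125). The difference at 4 h was lost without any one arrested culture (adjusted p = 0.0525, 0.0763 and 0.0531) or without polyploid replicate 3 (0.0876), while leaving out no single culture ended the call of the difference at 16 h. Cycling cells had 63.7, 126 and 85.1 CPM at 16 h and 53.4, 54.3 and 47.7 CPM at 0 h, a log2 change of 0.82 ± 0.30 (SE, adjusted p = 0.0314) that was lost without cycling replicate 2 (log2 0.56, adjusted p = 0.291) or replicate 3 (adjusted p = 0.0879). Polyploid cells at 16 h were below them with no overlap, at a log2 difference of −2.04 ± 0.32 (SE, adjusted p = 2.45e-06).

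*CLB1* had 42.8, 49.5 and 47.3 CPM (0 h), 98.2, 104 and 100 CPM (4 h) and 62.95, 44.4 and 75.97 CPM (8 h) in polyploid cells of the *cdc24-1 swe1Δ* test. Later *CLB1* levels were 62.6, 75.6 and 98.3 CPM (12 h) and 106, 129 and 100 CPM (16 h). Arrested cells had 179, 199 and 209 CPM (0 h), 383, 300 and 299 CPM (4 h), 270, 292 and 230 CPM (8 h), 255, 267 and 253 CPM (12 h) and 317, 169 and 267 CPM (16 h). Polyploid cells rose by 4 h and again by 16 h, all libraries of both times lying above 0 h, with log2 changes of 1.11 ± 0.24 (SE, adjusted p = 0.000738) and 1.27 ± 0.24 (SE, adjusted p = 8.57e-05). In arrested cells the changes were 0.74 ± 0.23 (SE, adjusted p = 0.0112), lost without arrested replicate 1 (adjusted p = 0.16), and 0.36 ± 0.23 (SE, adjusted p = 0.208). The difference was 0.91 ± 0.34 (SE, adjusted p = 0.0722) at 16 h, called with culture as a replicate block (adjusted p = 0.0282), and without the library that held *SWE1* counts it was 0.69 (adjusted p = 0.159). Cycling cells had 42.0, 70.7 and 50.8 CPM at 16 h and 36.5, 68.8 and 28.96 CPM at 0 h, and polyploid cells at 16 h were above them by 1.04 ± 0.24 (SE, adjusted p = 0.000561).

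The strains of the *cdc24-1 swe1Δ* test already differed at 0 h, in a comparison that was added after these values were seen. The polyploid minus arrested difference at 0 h was −2.07 ± 0.25 (SE, adjusted p = 1.46e-07) for *CLB1*, −2.12 ± 0.41 (SE, adjusted p = 0.000607) for *CLB6* and −0.77 ± 0.21 (SE, adjusted p = 0.0148) for *CLN3*. These 3 of 9 cyclins were lower and 0 higher, beside 4.81% of all genes that were lower and 4.46% that were higher. The 2 strains differ in *cdc20-1*, in mating type and in the history of their background, whose effects cannot be told apart. *CLB1* and *CLB6*, which had the largest differences of the 9, are the convergent neighbours on chromosome VII. Whether their position bears on this difference was not tested. In arrested cells of this test between 0 and 4 h, mean *CLB1* went from 195.9 to 327.6 CPM and mean *CLB6* from 18.2 to 2.68 CPM. In the *mad1Δ bub2Δ* test, 0 of 9 cyclins differed between polyploid and arrested strains at 0 h in edgeR, beside 4.48% of all genes called lower and 5.45% higher. The other tools were not run on it. At an unadjusted p under 0.05 there were 2, and the share of all genes at that threshold is not given.

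**Figure D4:**
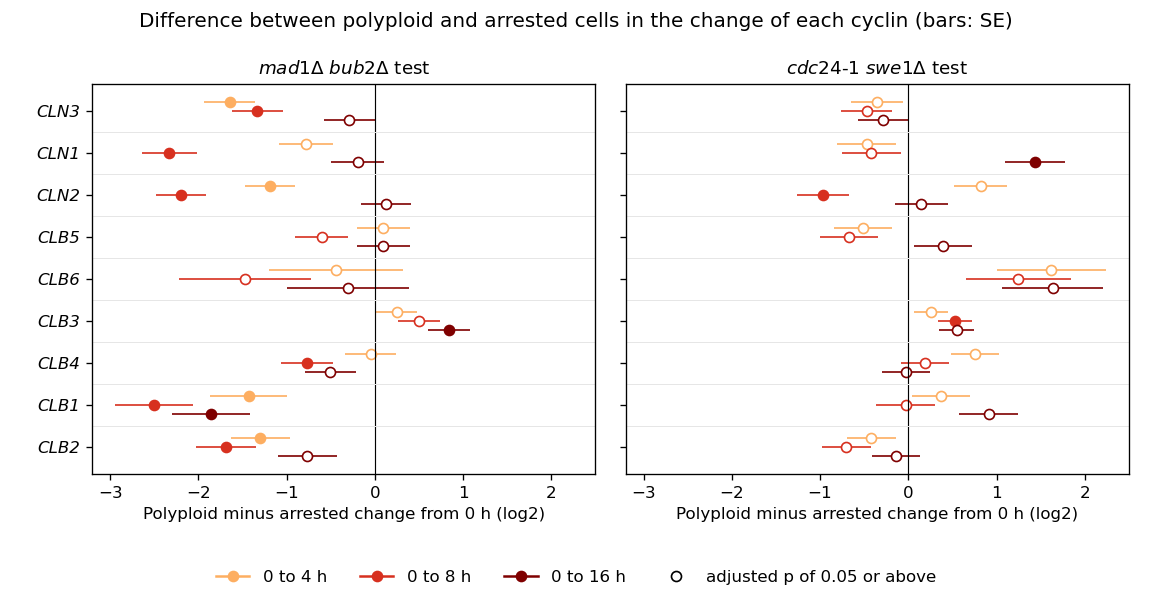
Polyploid minus arrested change from 0 h of each cyclin (horizontal axis, log2, bars are SE) to 4, 8 and 16 h in both tests; filled points passed an adjusted p of 0.05 in edgeR. In the *mad1Δ bub2Δ* test *CLB1*, *CLN1* and *CLN2* are lowest at 8 h, at −2.50, −2.33 and −2.20, and in the *cdc24-1 swe1Δ* test *CLN1* is highest at 16 h among filled points, at 1.43.

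The levels of the 9 genes, compared with each other as TPM, had the G1 cyclins on top at 0 h in polyploid cells of both tests, by their means. Arrested *cdc20-1* cells at 0 h had *CLB1* first (107 TPM), with no overlap with *CLN3* (80.4 TPM), and *CLN1* sixth (34.1 TPM). In polyploid cells of the *mad1Δ bub2Δ* test at 0 h, the order was *CLN2* (59.7 ± 4.94 TPM, SD, n = 3), *CLN3* (56.0 ± 7.75), *CLN1* (43.7 ± 12.6), *CLB2* (31.5 ± 4.66), *CLB3* (28.8 ± 7.20), *CLB1* (23.3 ± 2.88), *CLB4* (13.4 ± 0.940), *CLB5* (11.7 ± 0.0874) and *CLB6* (2.39 ± 1.43). Neighbours in this order overlapped between libraries down to *CLB1*, and those from *CLB1* to *CLB6* did not. At 8 h the order was *CLN3* (33.8 ± 14.8 TPM), *CLB3* (27.2 ± 4.91), *CLN2* (17.9 ± 4.38), *CLB4* (10.8 ± 0.582), *CLB5* (9.71 ± 2.21), *CLB1* (8.51 ± 2.98), *CLN1* (7.24 ± 0.894), *CLB2* (5.69 ± 1.73) and *CLB6* (0.738 ± 0.181). *CLB3* had moved up to overlap *CLN3*, and *CLN1* and *CLB2* had dropped below *CLB4* and *CLB5*, with no overlap between *CLB4* and *CLB2*.

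In polyploid cells of the *cdc24-1 swe1Δ* test the order at 0 h ran from *CLN3* (46.1 ± 3.28 TPM) to *CLB6* (2.83 ± 0.394), with *CLB1* sixth at 24.7 ± 2.81. At 16 h *CLB1* had the highest mean (91.1 ± 15.1 TPM), overlapping *CLN2* (88.1 ± 24.3), which overlapped *CLN3* (77.2 ± 4.31). In arrested cells of this test at 16 h, *CLB1* (214 ± 82.8 TPM) overlapped *CLN3* (166 ± 55.4), and *CLN1* (21.7 ± 4.92) was below every gene but *CLB6*. The ratio of *CLB1* to *CLB2* in TPM was 2.58 ± 0.407 (SD, n = 3) at 16 h and 0.846 ± 0.0532 at 0 h in polyploid cells of this test, with no overlap, and 4.50 ± 1.28 at 16 h and 3.10 ± 0.396 at 0 h in arrested cells. In the *mad1Δ bub2Δ* test it was 0.953 ± 0.115 at 16 h and 0.762 ± 0.219 at 0 h in polyploid cells.

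Across the 36 libraries of the *mad1Δ bub2Δ* test, the slope of expression on DNA content was negative for *CLB2* and *CLN1*, the 2 of 9 cyclins called at a Bonferroni-adjusted p under 0.05, and 0 were positive, beside 1.45% of all genes with a negative and 1.7% with a positive slope. Per 100000 AU of DNA content the log2 slope was −0.45 ± 0.06 (SE, adjusted p = 6.96e-05) for *CLB2*, −0.42 ± 0.07 (SE, adjusted p = 0.00182) for *CLN1* and −0.35 ± 0.07 (SE, adjusted p = 0.0744) for *CLB1*. The other 6 lay between −0.29 (adjusted p = 1) for *CLN3* and 0.05 (adjusted p = 1) for *CLB3*. Both calls were lost with culture as a replicate block (adjusted p = 1 for both), with cell type as a covariate and among polyploid cells alone, where the slope was −0.35 for *CLB2* and −0.34 for *CLN1*. That of *CLN1* was also lost without polyploid replicate 2 (adjusted p = 0.0566), and DESeq2 called *CLB1* (adjusted p = 0.00234). DNA content of polyploid cells rose with time in culture up to 12 h, and the parts of DNA content and time cannot be told apart.

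**Figure D5:**
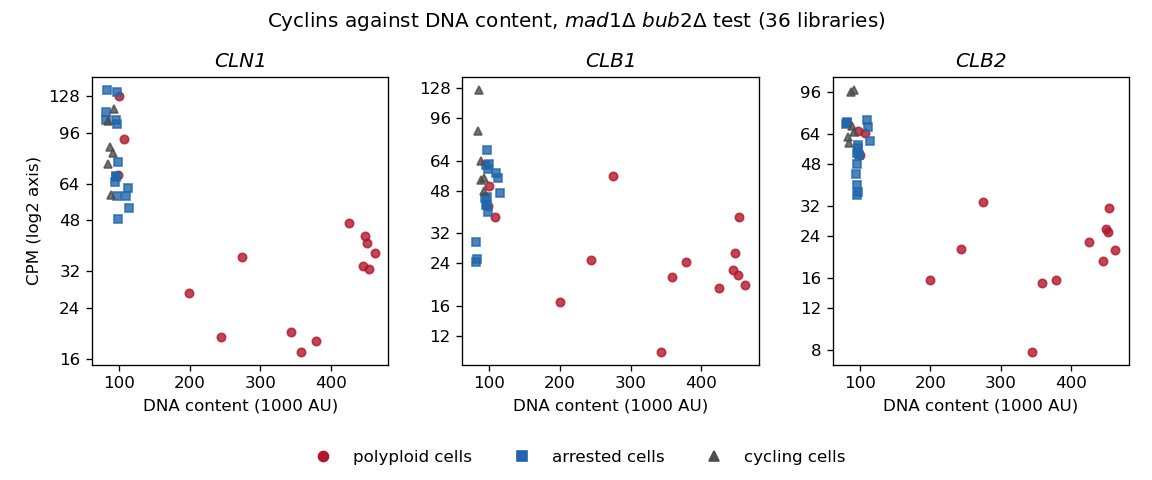
CPM of *CLN1*, *CLB1* and *CLB2* (vertical log2 axis) against mean DNA content in kAU for the 36 libraries of the *mad1Δ bub2Δ* test. Polyploid libraries from 4 h on lie to the right at 199.5 to 462.5 kAU, and *CLN1* and *CLB2* are lowest at 8 h, at 343.6 to 378.5 kAU, rather than at the highest DNA content.

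In the *cdc24-1 swe1Δ* test, 0 of 9 slopes were called by edgeR, DESeq2 or limma. In edgeR, 2.16% of all genes were called with a negative and 2.68% with a positive slope. An unadjusted p under 0.05 was found for 3 of 9, and the share of all genes at that threshold is not given. The slope of *CLB3* was 0.20 ± 0.05 (SE, adjusted p = 0.429), that of *CLB2* was −0.23 ± 0.07 (SE, adjusted p = 1) and that of *CLB1* was −0.65 ± 0.20 (SE, adjusted p = 1), beside 169 to 383 CPM of *CLB1* in the arrested libraries, whose DNA content was 81.0 to 112 kAU. Without the library that held *SWE1* counts the number called was also 0. The slope in the *mad1Δ bub2Δ* test minus that in the *cdc24-1 swe1Δ* test was called for 0 of 9 by the same tools. In edgeR, 1.33% of all genes were called lower and 1.47% higher. This slope difference had an unadjusted p under 0.05 for 4 of 9, a threshold at which no share of all genes is given. It was −0.43 ± 0.13 (SE, adjusted p = 1) for *CLN1* and −0.22 ± 0.10 (SE, adjusted p = 1) for *CLB2*.

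Genes around the cyclins were counted over lists written from general knowledge. Of 12 genes of the Clb2 cluster other than cyclins (*CDC5*, *CDC20*, *SWI5*, *BUD4*, *HST3*, *CHS2*, *MYO1*, *KIP2*, *IQG1*, *BUD3*, *ALK1* and YOR315W), which are transcribed with *CLB2* in mitosis, 0 rose and 12 fell at 8 h in polyploid cells of the *mad1Δ bub2Δ* test, with a median log2 change of −1.22 against 0.02 over all genes tested, of which 16.3% rose and 16.6% fell. In arrested cells at 8 h, 3 rose and 1 fell (median 0.24 against 0.05), beside 29.5% of all genes that rose and 25% that fell, so the share that rose was not above that of all genes. The polyploid minus arrested difference at 8 h was lower for 9 and higher for 0 (median −1.59 against −0.10), beside 20.7% and 16.8% of all genes. At 16 h, 0 rose and 6 fell in polyploid cells of this test (median −0.52 against 0.02, with 22.7% and 22% of all genes). At that time 8 rose and 0 fell in polyploid cells of the *cdc24-1 swe1Δ* test (median 0.74 against 0.07, with 26.2% and 23.3% of all genes). Arrested cells of that test had 9 that rose and 1 that fell (median 0.60 against 0.02, with 26.2% and 25.6% of all genes). Its cycling cells at 16 h had 3 that rose and 0 that fell (median 0.28 against −0.008, with 7.29% and 6.59% of all genes). *SWI5*, a member that encodes a transcription factor of the exit from mitosis, had a log2 change of −2.03 ± 0.30 (SE, adjusted p = 5.42e-06) at 8 h in polyploid and 0.26 ± 0.27 (adjusted p = 0.436) in arrested cells of the *mad1Δ bub2Δ* test. *CDC20*, the activator of the anaphase-promoting complex that marks B-type cyclins for destruction, had −1.20 ± 0.22 (adjusted p = 0.000106) in polyploid and 0.86 ± 0.21 (adjusted p = 0.000837) in arrested cells.

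Of 15 targets of SBF and MBF other than cyclins (*RNR1*, *POL1*, *POL2*, *CDC9*, *CDC21*, *RAD27*, *MCD1*, *PCL1*, *PCL2*, *SWI4*, *YOX1*, *HCM1*, *CDC45*, *GIN4* and *MNN1*), 0 rose and 6 fell at 8 h in polyploid cells of the *mad1Δ bub2Δ* test (median −0.51 against 0.02), beside the 16.3% and 16.6% of all genes given above. In arrested cells 3 rose and 3 fell (median −0.12 against 0.05), shares not above the 29.5% and 25% of all genes. At 16 h, 3 rose and 2 fell in those polyploid cells (median 0.40 against 0.02), shares not above the 22.7% and 22% of all genes. In turn 10 rose and 0 fell in polyploid cells of the *cdc24-1 swe1Δ* test (median 0.67 against 0.07, with 26.2% and 23.3% of all genes). Cycling cells of that test at 16 h also had 6 that rose and 1 that fell (median 0.45 against −0.008, with 7.29% and 6.59% of all genes). The polyploid minus arrested difference there was higher for 5 and lower for 0 (median 0.60 against 0.04), beside 5.41% and 6.64% of all genes. Of 10 genes for the CDK, its partners, inhibitors and opponents (*CDC28*, *CKS1*, *CAK1*, *SIC1*, *FAR1*, *SWE1*, *MIH1*, *CDC20*, *CDH1* and *CDC14*), 0 rose and 4 fell at 8 h in polyploid cells of the *mad1Δ bub2Δ* test (median −0.21 against 0.02), beside 16.3% and 16.6% of all genes. In arrested cells 5 rose and 1 fell (median 0.30 against 0.05), beside 29.5% and 25% of all genes. *CDC28*, the CDK itself, had a log2 change of 0.14 ± 0.16 (adjusted p = 0.535) in polyploid and 0.91 ± 0.16 (adjusted p = 2.6e-05) in arrested cells at that time. *SIC1*, which encodes an inhibitor of B-type cyclin kinases, had −0.58 ± 0.15 (adjusted p = 0.00311) in polyploid and 0.97 ± 0.15 (adjusted p = 1.74e-06) in arrested cells, and in the *cdc24-1 swe1Δ* test its polyploid minus arrested difference at 8 h was −1.31 ± 0.22 (adjusted p = 7.18e-05).

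The genes whose mean log2 CPM over the 24 conditions was most like that of a cyclin were listed as a description over 5940 genes tested in both tests. All 24 points share strains and culture times, and the correlation is Pearson's r. For *CLN3* they were *MSA1* (0.912), *GIC2* (0.865) and *VPS53* (0.855). For *CLN2* they were *MLO50* (0.796), *GIC2* (0.787) and *PCL2* (0.775). For *CLB2* they were *NBA1* (0.865), *CHS2* (0.859) and *AIM44* (0.853). For *CLB5* they were *SLU7* (0.895), *PET54* (0.873) and *CTK2* (0.86). Among the cyclins themselves, r was 0.724 for *CLN1* and *CLB2*, 0.67 for *CLN2* and *CLN3*, 0.61 for *CLB1* and *CLB2*, 0.515 for *CLN1* and *CLN2* and 0.528 for *CLB5* and *CLB6*.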

How the data were processed

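Poly(A) RNA was sequenced in 72 libraries, with 3 cultures of each strain and treatment sampled over time. The authors aligned the reads to the S288C R64 genome with STAR and quantified transcripts with Salmon, and deposited estimated counts per gene (whole numbers) and log2(TPM + 1) values. Ploidy was taken from the DNA content that the labels give for each sample. Samples were grouped by strain, drug, temperature and time in the labels.

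The deposited counts were tested with edgeR 4.0.16 (R 4.3.3) by the quasi-likelihood test after TMM scaling over all 72 libraries and edgeR's default filter on low counts within each test, with the condition means of 1 test (36 libraries) in 1 fit. Slopes used DNA content in units of 100000 AU with Bonferroni adjustment, and all other comparisons used Benjamini-Hochberg adjustment, both at 0.05 over all genes tested. The procedure was tested on simulated data. CPM carry no pseudocount, and correlations over conditions used log2 CPM with a prior count of 2.

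Alternatives were DESeq2 1.42.0, its size factors in edgeR, no filter, limma 3.58.1 on the deposited log2(TPM + 1) values, ribosomal RNA removed, a replicate block, other time points, each culture left out in turn and, for slopes, cell type as a covariate, polyploid cells alone and Benjamini-Hochberg adjustment. The time points of 1 replicate were drawn from the same culture by the study's methods, so culture was used as the block. Deviations of libraries of the same culture from their condition means had a median correlation of 0.038 over 126 pairs, of which 30.2% were above 0.1. The study's methods name 3 biological replicate samples. Nothing in the sources says that the cultures of a group were started from separate colonies, so p-values of the condition comparisons measure the spread between cultures. Those of the slopes rest on the spread of all libraries around a line. That spread also holds differences between conditions. The main fits had no block, so the time points of a culture count as independent both in the slopes and in the condition comparisons.

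All 9 cyclins were named by rule. Other genes were named from the lists, as deleted genes, or as the 3 genes with the highest correlation with *CLN2*, *CLN3*, *CLB2* and *CLB5*. Members and lists were chosen with earlier results of these data known. A gene of the Clb2 cluster list is not reported here and was left out of its counts. Sequences and positions are from the RefSeq R64 annotation of S288C.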

Additional observations from a re-analysis of the deposited data

Results flagged for a closer look

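Results are collected here where the change of polyploid cells from 0 h differed from that of arrested cells by a test of the difference itself in edgeR. In the *mad1Δ bub2Δ* test at 4 h, the difference of log2 changes was −1.65 (adjusted p = 8.68e-05) for *CLN3*, −1.43 (adjusted p = 0.0141) for *CLB1*, −1.30 (adjusted p = 0.00381) for *CLB2* and −1.19 (adjusted p = 0.00193) for *CLN2*. At 8 h in the same test it was −2.50 (adjusted p = 3.83e-05) for *CLB1*, −2.33 (adjusted p = 5.06e-07) for *CLN1*, −2.20 (adjusted p = 3.4e-07) for *CLN2*, −1.69 (adjusted p = 2e-04) for *CLB2*, −1.33 (adjusted p = 0.000502) for *CLN3* and −0.77 (adjusted p = 0.0367) for *CLB4*. At 12 h it was −1.41 (adjusted p = 0.0147) for *CLB1* and 0.80 (adjusted p = 0.0116) for *CLB3*. At 16 h in the same test it was −1.85 (adjusted p = 0.00265) for *CLB1* and 0.84 (adjusted p = 0.00974) for *CLB3*. In the *cdc24-1 swe1Δ* test at 8 h it was −0.97 (adjusted p = 0.0175) for *CLN2* and 0.53 (adjusted p = 0.0479) for *CLB3*, at 12 h it was 0.79 (adjusted p = 0.00581) for *CLB3* and 1.74 (adjusted p = 0.0347) for *CLB6*, and at 16 h it was 1.43 (adjusted p = 0.00536) for *CLN1*. Each is a difference between 3 polyploid and 3 arrested cultures.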

How the results depend on the processing

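Counts of cyclins called moved by more than 1.5 times under most kinds of setting, and no cause was tested. For most settings the share of all genes called is not given beside them, so these counts describe the processing and not the cyclins. They did not so move with DESeq2 size factors in edgeR, without a filter on low counts or with ribosomal RNA removed. For the slope in the *mad1Δ bub2Δ* test (2 called), limma gave 1, Benjamini-Hochberg adjustment 5, and the replicate block, cell type as a covariate and polyploid cells alone 0 each. With Benjamini-Hochberg adjustment, 3 slopes of the *cdc24-1 swe1Δ* test (0 called) and 1 slope difference (0 called) passed. With 12 h for 16 h, 2 in place of 4 were called in polyploid cells of the *mad1Δ bub2Δ* test. The *cdc24-1 swe1Δ* test then had 5 in place of 3 in arrested cells and 2 in place of 1 differences. With 8 h for 4 h, 6 in place of 3 were called in arrested cells of the *mad1Δ bub2Δ* test. The *cdc24-1 swe1Δ* test had 2 in place of 4 in polyploid cells and 2 in place of 0 differences.

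In the *cdc24-1 swe1Δ* test, limma called 1 in place of 4 at 4 h and 8 in place of 5 at 16 h in polyploid cells, and 6 in place of 3 at 16 h in arrested cells. On its log2(TPM + 1) values the median gene at 16 h was 0.58 higher than in edgeR in polyploid cells and 0.60 higher in arrested cells. For the difference at 16 h (1 called), DESeq2 called 2, limma 0 and the replicate block 4. Without the library that held *SWE1* counts, 5 in place of 3 were called in arrested cells at 16 h. The replicate block changed single calls only where they are named in the results above.

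Leaving out 1 culture gave 1 to 2 slopes in the *mad1Δ bub2Δ* test. In its arrested cells it gave 1 to 2 calls at 4 h (3 with all) and 2 to 3 at 16 h (5 with all), in cycling cells 1 to 3, and 1 to 2 differences at 16 h. In the *cdc24-1 swe1Δ* test it gave 1 to 3 calls in polyploid cells (4 with all) and 1 to 3 in arrested cells at 4 h, 0 to 1 differences at 4 h, 1 to 2 at 16 h, and 3 to 5 calls between polyploid and cycling cells.

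The direction turned in 10 cases, 7 of them with limma on log2(TPM + 1), where the median gene was 0.65 to 0.99 higher than in edgeR in the same comparisons. With 8 h for 4 h, *CLN2* had 0.66 in arrested cells of the *mad1Δ bub2Δ* test, and it had 1.33 in arrested *cdc20-1* cells and −0.97 for the polyploid minus arrested difference there. With limma, arrested cells of the *mad1Δ bub2Δ* test at 16 h had 0.56 for *CLN2*, 0.20 for *CLB2* and 0.32 for *CLB3*, the difference between polyploid and cycling cells was 0.19 for *CLN1*, 0.72 for *CLN2* and 0.24 for *CLB5* in that test and 0.044 for *CLB2* at 37 °C against 25 °C. Spearman in place of Pearson correlation kept 1 of the 3 genes most like *CLN3* (*MSA1*, 0.91) and *CLN2* (*MLO50*, 0.698), none of those like *CLB2* and 2 of those like *CLB5*.

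The depth limits *CLB6*, with 6 to 140 counts a library, most. Groups of 3 cultures, strains that differ in more than 1 allele, temperature that goes with cell type and libraries not known to keep strand limit the rest. Transcript levels say nothing of cyclin protein, which was not measured here.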
